A study of Caenorhabditis elegans with 6 samples.

Results

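The col- genes are the numbered cuticle collagens of Caenorhabditis elegans. They were taken here as the probe sets whose deposited gene symbol starts with col-, without col-7, col-19, col-62 and col-63. One probe set was kept per symbol, and no symbol had more than 1. This gave 149 members among 27568 named and tested probe sets and 29317 in all. Expression was measured on Affymetrix arrays of whole wild-type N2 animals, all synchronised by bleaching and all labelled as young adults 3 days old. The groups were 2 arrays of animals in 100 µM Ponceau Red (numbered 2 and 3 in the deposited table), 2 of animals in 100 µM tartrazine (numbered 1 and 2) and 2 of animals in water (numbered 1 and 2). Exposure was to a single dose in S medium for 48 h at 20 °C, and began 16 to 18 h after hatching. Ponceau Red and tartrazine are synthetic azo dyes used to colour food.

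The cuticle is the outer coat of the worm, secreted by the epidermis (hypodermis and seam cells) and rebuilt at every moult. Each stage builds its own cuticle, so a set of collagen genes is switched on in a burst before each moult and off after it. A cuticle collagen is a short secreted protein with Gly-X-Y repeats, which 3 chains wind into a triple helix before enzymes trim and cross-link it. Most numbered col- genes have no known mutant phenotype of their own.

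Signals are the authors' log2 RMA values, on which 1 unit is a 2-fold difference. They ran from 0.44 to 11.65 over all probe sets, and the array medians lay between 2.13 and 2.17 in Ponceau Red, 2.13 and 2.22 in tartrazine, and 2.35 and 2.40 in water. A signal near these medians is close to the dim end of the array, so a difference that ends there is a lower bound. The files used here give no detection call. The animals' stage is known from the labels alone. The 6 yolk genes (vit-1 to vit-6), which adult intestine transcribes, summed to 10135 linear signal units in Ponceau Red array 2 and 24.1 in array 3, to 5404 and 8192 in the tartrazine arrays, and to 26.7 and 25 in the water arrays. The 11 oocyte and eggshell genes summed to 4352 and 72.3 in Ponceau Red, 3630 and 3725 in tartrazine, and 123 and 65.9 in water. The 7 germ-line genes ran the same way, with sums of 803 and 28 in Ponceau Red, 846 and 882 in tartrazine, and 50.5 and 37.6 in water. The 6 sperm genes summed to 31.9 and 21.7 in Ponceau Red, 59.1 and 50.3 in tartrazine, and 27.2 and 23.9 in water. In sperm genes, Ponceau Red array 2 was thus nearer to water than to tartrazine. Markers of yolk, oocytes and germ line were low in both water arrays and in Ponceau Red array 3, against their label of young adult. The part of these markers in the results below was not tested. The 8 measured epidermal markers summed to 506 and 1019 in Ponceau Red, 448 and 492 in tartrazine, and 1007 and 1081 in water. Of these, vab-10 went the other way, at 1.01 log2 above water with both colorants averaged. The 4 intestine markers summed to 724 and 1607 in Ponceau Red, 516 and 614 in tartrazine, and 1623 and 1826 in water. The sum for seam cells ran the same way, and those for body wall muscle and neurons differed less between arrays. The pharynx sum did so through pha-4, which read 3.84 and 7.64 in Ponceau Red. The other pharynx markers, myo-1, myo-2 and tnc-2, were below water in Ponceau Red array 3 as well. For example, myo-1 read 4.08 and 3.66 in Ponceau Red, 4.15 and 4.24 in tartrazine, and 5.43 and 5.59 in water. In whole animals, fewer cells of a type and less RNA per cell cannot be told apart.

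The members fell into 4 classes by where their 6 signals lay. In 44 members (29.5%, against 4.32% of all tested probe sets) every colorant array was at least 1 log2 below the lower water array. Ponceau Red array 3 was at least 1 log2 above array 2 in 42 members (28.2%, against 11.6%), of which 12 were in the first class and 30 form the second. Array 2 was as far above array 3 in 23 members (15.4%, against 12.3%), of which 1 was in the first class and 22 form the third. No member was at least 1 log2 above water in all 4 colorant arrays, against 0.294% of all tested probe sets. The other 53 members (35.6%, against 72.3%) met neither rule, and 33 of these stayed below 3 log2 in all 6 arrays. The classes were cut from the signals themselves, so they are a description and carry no test. At the border, col-113 lay 1.00 log2 below water and was counted as lower in all colorant arrays, and col-183 lay 0.98 below and was not. Among the split members, col-183 and col-103 had the smallest gap with array 3 the higher, 1.03 log2, and col-142 the smallest with array 2 the higher, 1.11. Outside the first class, the widest gap that fell short of 1 log2 was 0.86, in col-150. In the first class it was 0.99, in col-92.

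**Figure D1:**
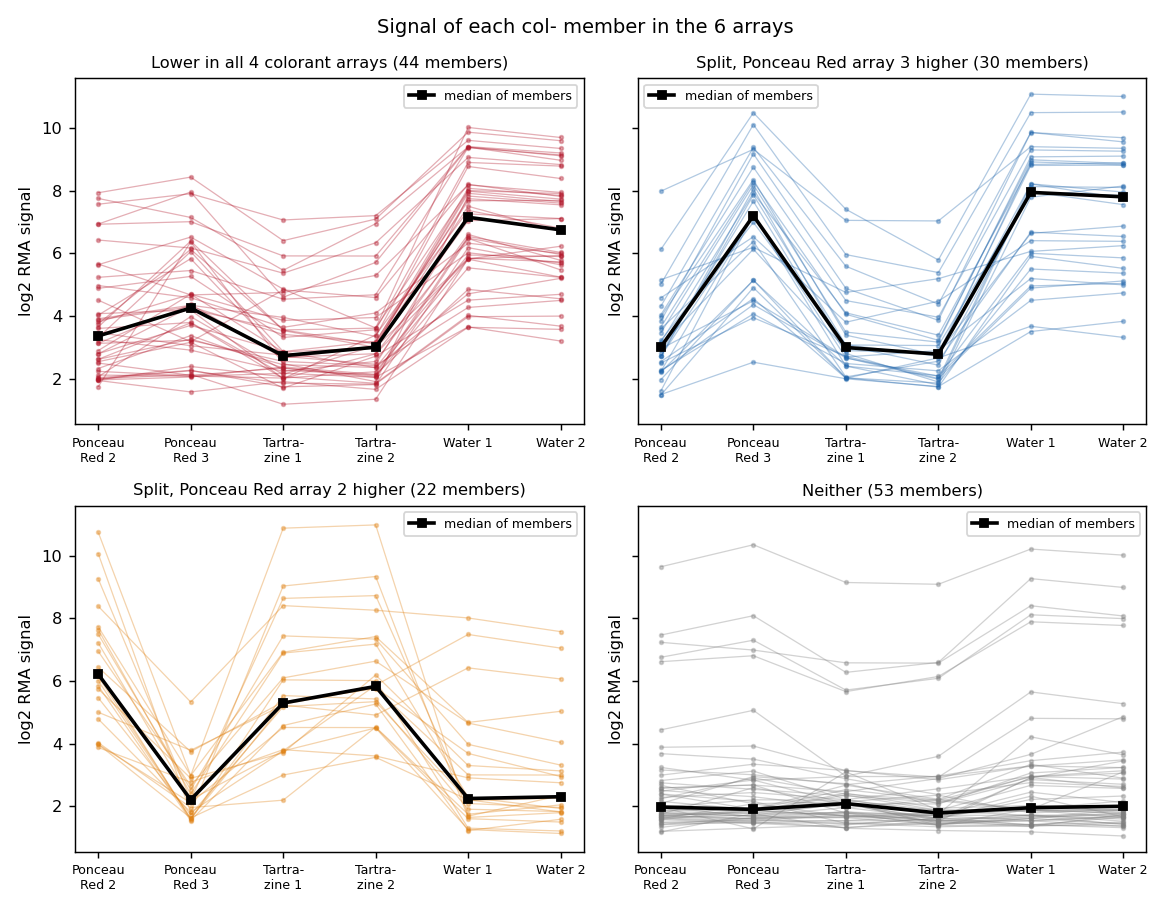
Log2 RMA signal of each of the 149 members (thin lines) in the 6 arrays, in 1 panel per class, with the class median in black. In the class lower in all colorant arrays the median was 3.37 and 4.26 in Ponceau Red arrays 2 and 3, 2.73 and 3.01 in tartrazine, and 7.15 and 6.75 in water.

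The array levels of the whole family differed in the same way. Members above 8 log2 numbered 5 and 13 in Ponceau Red arrays 2 and 3, 5 in each tartrazine array, and 33 and 26 in the water arrays. The median member read 2.96 and 3.13 in Ponceau Red, 2.71 and 2.75 in tartrazine, and 4.71 and 4.87 in water. Ponceau Red arrays 2 and 3 differed by at least 1 log2 in 65 of 149 members (43.6%, against 24% of all tested probe sets), against 12 members between the tartrazine arrays (2.9% of all) and 3 between the water arrays (1.64% of all). Ponceau Red array 2 was that far from tartrazine array 1 in 27 members (18.1%, against 3.51% of all). It was that far from tartrazine array 2 in 11 (7.38%, against 0.696%) and from water array 1 in 102 (68.5%, against 26.4%). Ponceau Red array 3 was that far from tartrazine array 2 in 74 members (49.7%, against 26.3% of all) and from water array 1 in 63 (42.3%, against 15.7%). Across the 149 members, whose signals in an array share 1 library, array 3 correlated at 0.88 and 0.892 with water arrays 1 and 2. With tartrazine arrays 1 and 2, array 3 correlated at 0.434 and 0.357, and array 2 at 0.939 and 0.979.

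The comparison of each colorant with water asked which members differed after exposure. The test was limma over the 6 arrays. A member was taken to pass when its p, adjusted by Benjamini-Hochberg over all 27568 probe sets, was under 0.05. In Ponceau Red 25 members fell and 0 rose, where 2.75% of all tested probe sets fell and 0.138% rose. At an unadjusted p under 0.05 there were 65 members. In tartrazine 43 members fell and 0 rose, where 3.86% of all fell and 0.519% rose, and 102 members had an unadjusted p under 0.05. All 25 members that passed in Ponceau Red were among the 43 in tartrazine, but both counts use the same water arrays. Over the 149 members the difference had a median of -1.21 log2 for Ponceau Red and -1.89 for tartrazine, beside medians over all tested probe sets of 0.06 and 0.02. With both colorants averaged, 45 members fell and 0 rose against water, where 4.65% of all fell and 0.544% rose. The 2 colorants were also set against each other, and no member passed (0 of 27568 probe sets, 0%), with 28 members at an unadjusted p under 0.05. Every member that passed in Ponceau Red was in the class lower in all colorant arrays. In tartrazine 36 were in that class and 7 were in neither class.

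The counts depended on single arrays. In the comparison of Ponceau Red with water, leaving out Ponceau Red array 2 gave 52 falls and 2 rises, and leaving out array 3 gave 82 falls and 21 rises. The corresponding shares of all tested probe sets were 6.38% lower and 4.99% higher without array 2, and 13.1% lower and 13.1% higher without array 3. Without either tartrazine array 6 members fell in Ponceau Red, and without either water array 0 passed, while 49 had an unadjusted limma p under 0.05. In tartrazine 93 members fell and 17 rose in limma on the 4 tartrazine and water arrays alone, where 19% of all tested probe sets fell and 16.1% rose, and the counts were equal when 1 Ponceau Red array was kept. With 1 tartrazine or 1 water array left out 0 members passed in tartrazine, while 65 or 66 had an unadjusted limma p under 0.05. Between the colorants 20 members fell and 58 rose when Ponceau Red array 2 was left out, where 13% of all tested probe sets fell and 14.7% rose, and 0 passed when array 3 was left out. Array medians were lower by 0.22 log2 in Ponceau Red and 0.20 in tartrazine than in water, and centring each array on its median left 20 members that fell in Ponceau Red and 40 in tartrazine, with 0 that rose.

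**Figure D2:**
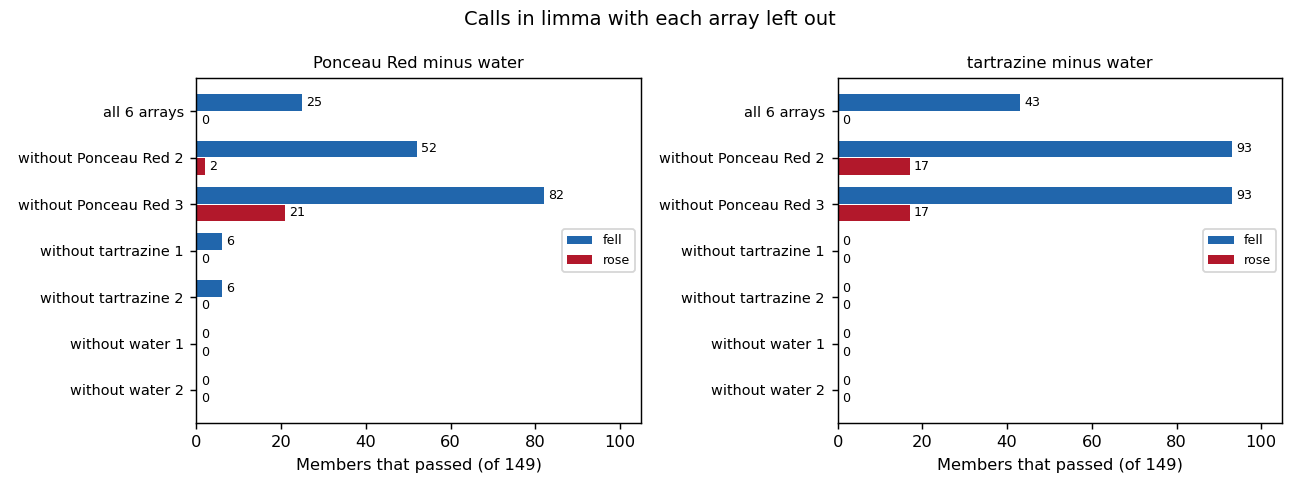
Number of the 149 members that fell (blue) or rose (red) in limma, for Ponceau Red minus water (left) and tartrazine minus water (right), with all 6 arrays and with each array left out. In tartrazine, 43 members fell over 6 arrays and 93 fell without either Ponceau Red array.

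Among the members lower in all colorant arrays, col-41 changed most in Ponceau Red. This gene is a known target of the DBL-1 (BMP) body size pathway. col-41 read 3.47 and 3.05 in the Ponceau Red arrays, 2.75 and 3.04 in tartrazine, and 7.91 and 7.65 in water. All 4 colorant arrays lay far below both water arrays. col-41 fell by 4.52 ± 0.23 log2 in Ponceau Red (SE, n = 2 arrays per group, limma adjusted p = 0.0052) and by 4.89 ± 0.23 in tartrazine (limma adjusted p = 0.0050). col-65 read 3.91 and 4.34 in Ponceau Red, 3.96 and 3.35 in tartrazine, and 8.77 and 8.39 in water. It fell by 4.45 ± 0.31 log2 in Ponceau Red (limma adjusted p = 0.0068) and by 4.93 ± 0.31 in tartrazine (limma adjusted p = 0.0055), and its colorant arrays overlapped one another. col-180 was at the dim end in every colorant array, with 2.00 and 2.14 in Ponceau Red and 1.19 and 1.35 in tartrazine, against 5.83 and 5.93 in water. Its differences of -3.81 ± 0.16 and -4.61 ± 0.16 log2 (limma adjusted p = 0.0052 in Ponceau Red and 0.0050 in tartrazine) are lower bounds in size.

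col-125 kept a signal well above the array medians in the colorants. It read 5.23 and 5.45 in Ponceau Red, 4.54 and 4.68 in tartrazine, and 9.37 and 9.14 in water. It fell by 3.91 ± 0.18 log2 in Ponceau Red and by 4.65 ± 0.18 in tartrazine (limma adjusted p = 0.0052 and 0.0050). col-17 read 4.88 and 5.26 in Ponceau Red, 3.32 and 3.56 in tartrazine, and 8.90 and 8.78 in water. The 3 groups did not overlap, with tartrazine lowest. col-17 fell by 3.77 ± 0.21 log2 in Ponceau Red and by 5.40 ± 0.21 in tartrazine (limma adjusted p = 0.0052 and 0.0050), and its difference between the colorants was 1.63 log2 with a 95% interval of 1.09 to 2.18, which did not pass (limma adjusted p = 0.68). col-73, in the same cluster on chromosome II with col-20 between them, read 5.64 and 6.52 in Ponceau Red, 4.86 and 3.62 in tartrazine, and 10.02 and 9.70 in water. It had the largest fall of any member that passed in tartrazine, 5.62 ± 0.52 log2 (limma adjusted p = 0.014), and fell by 3.78 ± 0.52 in Ponceau Red (limma adjusted p = 0.039). Tartrazine was below Ponceau Red in the group means of 40 of the 44 members of the class, though no member passed between the colorants. The 44 members ranged from -4.52 to -1.21 log2 in Ponceau Red, with a median of -2.76. In tartrazine they ranged from -5.62 to -1.32, with a median of -3.55.

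**Figure D3:**
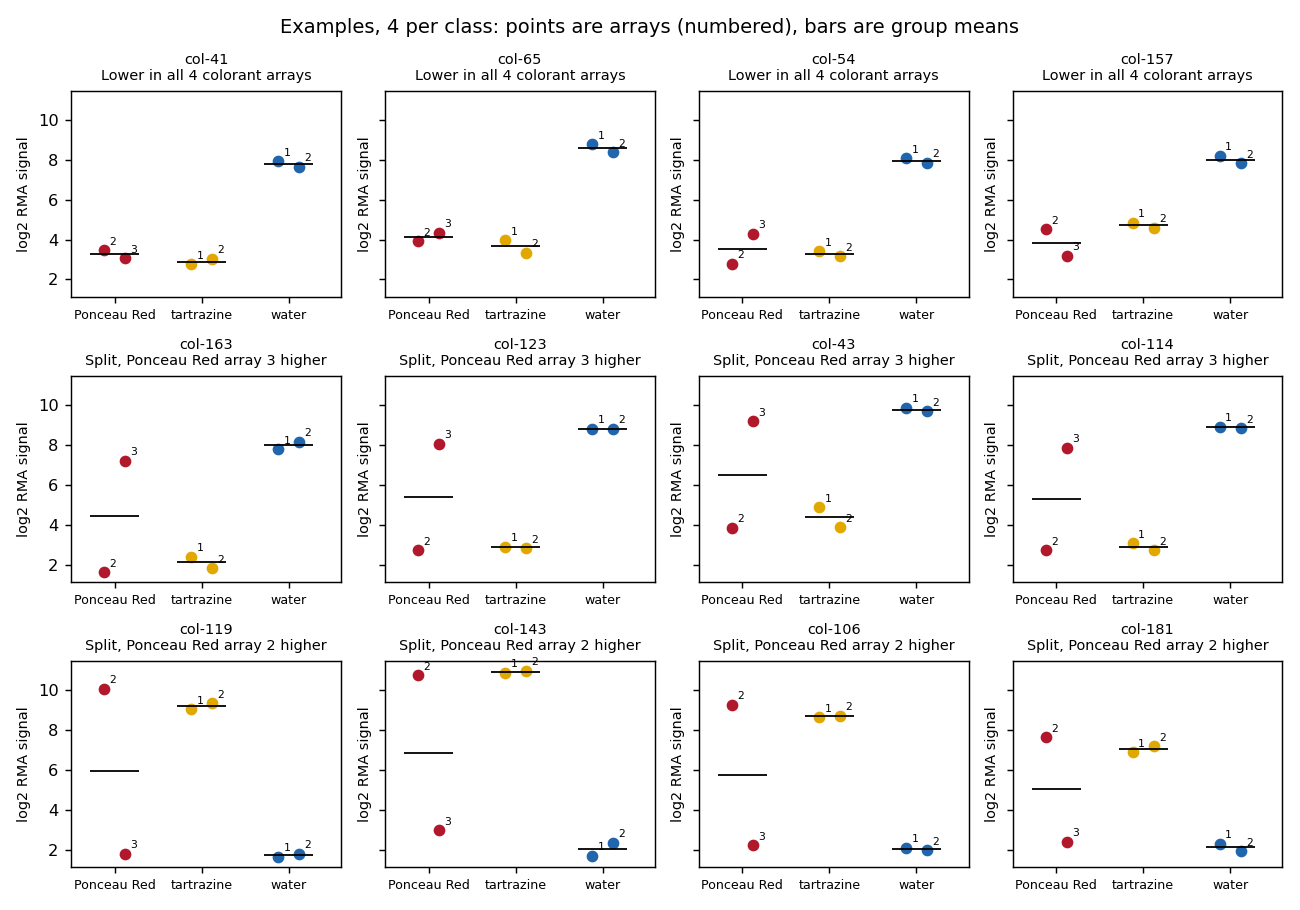
Log2 RMA signal of 12 members, 4 from each of 3 classes, in Ponceau Red, tartrazine and water, where points are arrays with their numbers and bars are group means. The upper row shows members lower in all colorant arrays, such as col-41 at 3.47 and 3.05 in Ponceau Red against 7.91 and 7.65 in water, the middle row those with Ponceau Red array 3 the higher and the lower row those with array 2 the higher.

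Further members of the class that the fit called were col-161, col-54, col-157, col-90, col-156 and col-13 in Ponceau Red. col-161 fell by 4.16 log2 in Ponceau Red and by 5.26 in tartrazine, which put it among the larger falls in both. col-157 was the single member of the class with Ponceau Red array 2 at least 1 log2 above array 3, at 4.51 and 3.18, against 4.83 and 4.59 in tartrazine and 8.20 and 7.81 in water. In 12 members the opposite gap was present, and in 31 the Ponceau Red arrays were within 1 log2. col-54 had such a gap, with 2.79 and 4.29 in Ponceau Red, 3.41 and 3.16 in tartrazine, and 8.07 and 7.85 in water. Its falls of 4.42 ± 0.52 and 4.67 ± 0.52 log2 passed (limma adjusted p = 0.026 in Ponceau Red and 0.020 in tartrazine). col-48 and col-168 passed in tartrazine alone, with falls of 4.60 and 4.39 log2 (limma adjusted p = 0.029 and 0.022). Their differences in Ponceau Red were -2.25 and -2.95 log2 (limma adjusted p = 0.18 and 0.068). col-159 passed in both, with falls of 3.01 log2 in Ponceau Red and 4.26 in tartrazine.

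Members with a role described in earlier work on worms were spread over the classes, and 30 of 32 listed ones were measured. col-12 and col-13 are a tandem pair on chromosome V with nearly the same protein sequence. Whether the signal of one includes the other was not tested, and neither was marked for cross-hybridisation. col-12 transcripts belong to the middle of the burst that precedes a moult. col-13 read 2.50 and 2.11 in Ponceau Red, 2.34 and 2.04 in tartrazine, and 6.48 and 5.47 in water, and it fell by 3.67 ± 0.39 and 3.78 ± 0.39 log2 (limma adjusted p = 0.019 in Ponceau Red and 0.017 in tartrazine). col-12 read 7.75 and 7.14 in Ponceau Red, 5.46 and 6.95 in tartrazine, and 9.39 and 9.11 in water. Its differences of -1.80 ± 0.55 and -3.05 ± 0.55 log2 did not pass (limma adjusted p = 0.23 in Ponceau Red and 0.057 in tartrazine). col-10, col-13 and col-120 extend the life of worms when overexpressed. col-10 read 6.76 and 7.30 in Ponceau Red, 5.71 and 6.09 in tartrazine, and 8.11 and 7.99 in water. It fell by 2.15 ± 0.26 log2 in tartrazine (limma adjusted p = 0.024) and differed by -1.02 ± 0.26 in Ponceau Red (limma adjusted p = 0.16). col-120 stayed between 1.40 and 2.17 log2 in all 6 arrays, at the dim end, where no change could be read. col-121, col-49, col-99 and col-129 also stayed below 3 log2 in every array. col-99 differs from the rest of the family in kind, since it encodes a membrane-bound collagen that acts in neurons.

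In most of the 30 members with Ponceau Red array 3 the higher, array 3 read like water and array 2 like tartrazine. Array 3 was within 1 log2 of the water mean in 26 of the 30. Array 2 was within 1 log2 of the tartrazine mean in 29. The nearness of array 3 to water is partly fixed by the cut. Members with every colorant array at least 1 log2 below water went to the first class. The class median was 3.01 and 7.20 in Ponceau Red arrays 2 and 3, 3.00 and 2.78 in tartrazine, and 7.94 and 7.80 in water. col-123 read 2.71 and 8.06 in Ponceau Red, 2.90 and 2.82 in tartrazine, and 8.80 and 8.81 in water. col-163 read 1.61 and 7.21 in Ponceau Red, 2.40 and 1.81 in tartrazine, and 7.79 and 8.15 in water. In both genes Ponceau Red array 2 lay at or below the tartrazine arrays, and array 3 lay below water but far above tartrazine. col-2 is known as a collagen of the dauer larva, the arrested stage that survives hardship. It read 6.13 and 10.48 in Ponceau Red, 7.41 and 5.79 in tartrazine, and 11.08 and 11.01 in water. Members of this kind were not called in the fit over 6 arrays, in which the spread between the Ponceau Red arrays enters the error of every contrast. The difference of col-123 was -3.42 ± 1.74 log2 in Ponceau Red (limma adjusted p = 0.46) and -5.95 ± 1.74 in tartrazine (limma adjusted p = 0.12).

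The split was defined from the Ponceau Red arrays, with members lower in all colorant arrays excluded. Over all tested probe sets array 2 correlated at 0.991 with tartrazine array 2, and array 3 at 0.931 with water array 2. A split of the Ponceau Red arrays and a difference of tartrazine from water are therefore not independent. The counts below were not made for all probe sets split the same way. Both tartrazine arrays lay below both water arrays in 30 of the 30 members with array 3 the higher, where 34.3% of all tested probe sets did so. In limma on the 4 tartrazine and water arrays all 30 fell and 0 rose, where 19% of all tested probe sets fell and 16.1% rose. col-123 fell there by 5.95 ± 0.17 log2 (limma adjusted p = 3.6e-05), col-163 by 5.86 ± 0.26 (limma adjusted p = 4.9e-05) and col-2 by 4.45 ± 0.49 (limma adjusted p = 0.00090). Of the 44 members lower in all colorant arrays 44 fell in that fit, which the choice of the class fixes in direction. Of the 53 in neither class 17 fell and 0 rose.

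The 22 members with Ponceau Red array 2 the higher were mostly dim in water and bright in tartrazine. Their median was 6.22 and 2.21 in Ponceau Red arrays 2 and 3, 5.30 and 5.83 in tartrazine, and 2.25 and 2.31 in water. col-119 read 10.06 and 1.81 in Ponceau Red, 9.03 and 9.33 in tartrazine, and 1.65 and 1.80 in water. col-143 read 10.74 and 2.99 in Ponceau Red, 10.88 and 10.98 in tartrazine, and 1.69 and 2.35 in water. col-106 read 9.26 and 2.21 in Ponceau Red, 8.64 and 8.73 in tartrazine, and 2.09 and 1.97 in water. In these 3 genes Ponceau Red array 2 and both tartrazine arrays were bright, while array 3 and water sat near the array medians. Both tartrazine arrays were above both water arrays in 20 of the 22 members, where 33.7% of all tested probe sets did so. Here too the count is not independent of the split. In limma on the 4 tartrazine and water arrays 17 of the 22 rose and 2 fell, where 16.1% of all tested probe sets rose and 19% fell. col-143 rose by 8.91 ± 0.25 log2 there (limma adjusted p = 3.6e-05), col-119 by 7.46 ± 0.19 (limma adjusted p = 3.3e-05) and col-106 by 6.65 ± 0.17 (limma adjusted p = 3.3e-05). Over all 6 arrays none of the 22 passed, and the difference of col-143 in tartrazine was 8.91 ± 2.52 log2 (limma adjusted p = 0.12).

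**Figure D4:**
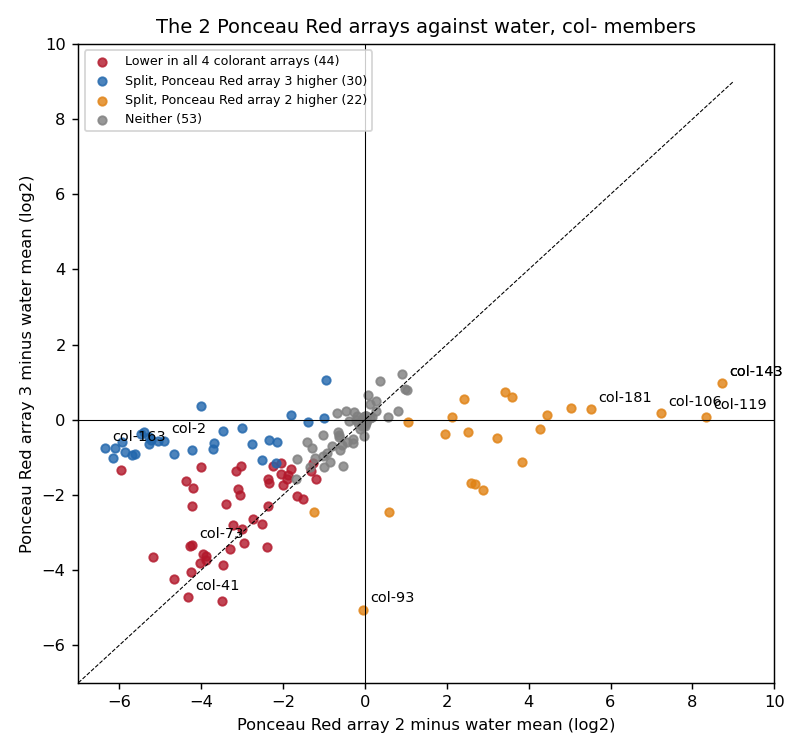
Difference of each member from the water mean (log2) in Ponceau Red array 2 (horizontal) and array 3 (vertical), coloured by class, with the line of equal values dashed. Of the 44 members lower in all colorant arrays 31 lie within 1 log2 of the dashed line, while 26 of the 30 with array 3 the higher and 15 of the 22 with array 2 the higher lie within 1 log2 of 0 in array 3. In the class with array 3 the higher, the nearness of array 3 to water is partly fixed by the cut.

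The collagen col-19, which marks the adult cuticle and is no member here, read 8.12 and 2.40 in Ponceau Red, 6.93 and 7.91 in tartrazine, and 3.19 and 3.20 in water. As in col-119 and all 6 yolk genes, Ponceau Red array 2 and both tartrazine arrays were high and array 3 and both water arrays were low. The other collagens left out by name did not share this pattern. col-7 read 9.03 and 8.90 in Ponceau Red, 8.62 and 8.59 in tartrazine, and 9.42 and 9.26 in water. col-62 and col-63 stayed between 2.23 and 3.19 log2 in all 6 arrays. Not every member with array 2 the higher followed col-19 either. col-93 read 7.21 and 2.22 in Ponceau Red, 3.77 and 5.87 in tartrazine, and 7.49 and 7.05 in water, so array 2 was like water and array 3 was the lowest of all. col-155 read 8.39 and 5.33 in Ponceau Red, 8.41 and 8.26 in tartrazine, and 8.01 and 7.58 in water, with array 3 alone apart. Array 3 was at least 1 log2 below the water mean in 7 of the 22. For col-140, col-80 and col-184, among other members, the sign of the Ponceau Red difference depended on the array kept. It was -1.87 log2 for col-140, -1.70 for col-80 and -1.71 for col-184 without array 2, and 2.87 for col-140, 2.60 for col-80 and 2.69 for col-184 without array 3. col-140 had 7.73 and 2.99 in Ponceau Red, 6.92 and 7.42 in tartrazine, and 4.68 and 5.03 in water, so that the Ponceau Red arrays lay on either side of water.

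For the 88 members whose tartrazine mean was at least 1 log2 below the water mean, the place of each Ponceau Red array on that path was computed, where 0 is the water mean and 1 the tartrazine mean. The median place was 0.927 for array 2 and 0.532 for array 3. Array 2 lay beyond 0.75 in 67 members and below 0.25 in 1. Array 3 was spread, with 29 members below 0.25, 34 between and 25 beyond 0.75. col-41 and col-65 lay at 0.968 and 0.860 in array 3, while col-123 and col-163 lay at 0.125 and 0.129. Among these 88 members, array 3 held both some near their tartrazine level and some near their water level. The same places were not computed over all tested probe sets, so these counts are no result about the members.

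**Figure D5:**
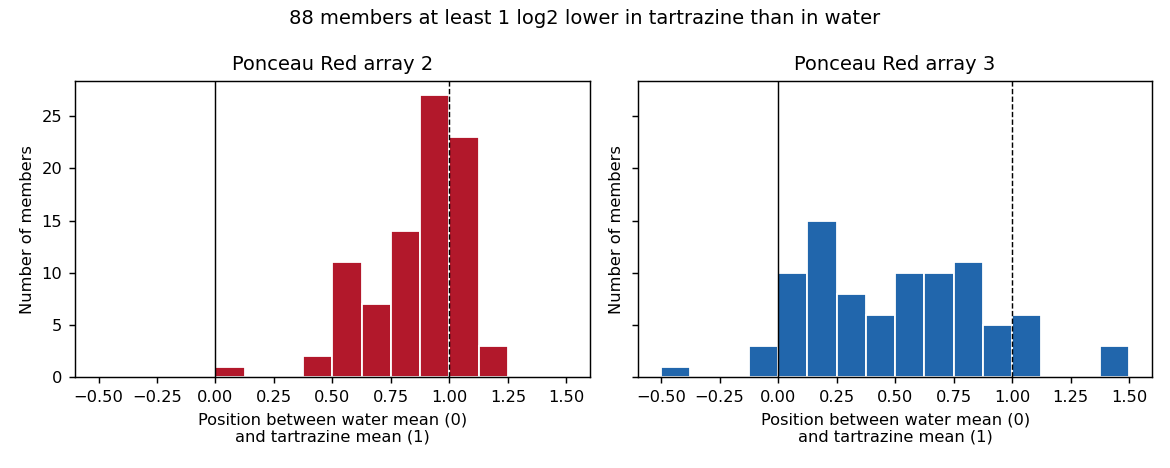
Number of members by the position of Ponceau Red array 2 (left) and array 3 (right) between the water mean (0, solid line) and the tartrazine mean (1, dashed line), for the 88 members at least 1 log2 lower in tartrazine, with positions outside the axis drawn in its end bins. The median position was 0.927 in array 2 and 0.532 in array 3.

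Members that stayed high in every group were few. col-42 read 9.65 and 10.35 in Ponceau Red, 9.14 and 9.09 in tartrazine, and 10.21 and 10.02 in water. The fit gave -0.12 ± 0.28 log2 for Ponceau Red and -1.0 ± 0.28 for tartrazine, and neither passed (limma adjusted p = 0.87 and 0.11). col-154 was lower in all colorant arrays yet bright throughout, with 7.57 and 7.90 in Ponceau Red, 7.06 and 7.20 in tartrazine, and 9.60 and 9.35 in water. It fell by 1.74 ± 0.20 log2 in Ponceau Red and by 2.34 ± 0.20 in tartrazine (limma adjusted p = 0.025 and 0.012). col-147 read 7.93 and 8.43 in Ponceau Red, 6.41 and 7.09 in tartrazine, and 9.86 and 9.59 in water, and passed in tartrazine with a fall of 2.98 ± 0.32 log2 (limma adjusted p = 0.019). col-160, in neither class, read 7.23 and 6.99 in Ponceau Red, 6.58 and 6.57 in tartrazine, and 8.40 and 8.07 in water. It fell by 1.66 ± 0.19 log2 in tartrazine (limma adjusted p = 0.023).

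Position in the genome, which the choice of members did not use, was taken from RefSeq gene order (WBcel235). The members lie on all 6 chromosomes, with 18 on I, 24 on II, 12 on III, 38 on IV, 30 on V and 27 on X. Chromosome V held 13 of the 44 members lower in all colorant arrays, and chromosome III held 5 of the 22 with array 2 the higher. In all, 44 members lay in 18 clusters with starts within 10 kb of the next member. Of 26 neighbouring pairs 9 (34.6%) shared a class, and no share was computed for members that are not neighbours. On chromosome III, col-92 differed in class from its neighbour col-93, while col-93 and col-94 shared a class. col-92 read 5.66 and 4.67 in Ponceau Red, 4.75 and 5.30 in tartrazine, and 8.18 and 7.94 in water, while col-94 read 5.75 and 2.90 in Ponceau Red, 3.71 and 6.19 in tartrazine, and 3.31 and 3.13 in water. The neighbours col-183 and col-184 on chromosome X split the Ponceau Red arrays in opposite directions, at 1.50 and 2.53 for col-183 and at 6.01 and 1.61 for col-184. In a cluster on chromosome V, col-141 stayed between 2.85 and 3.48 log2 in all arrays and col-143, with col-142 between them, spanned 1.69 to 10.98.

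Other genes of the cuticle pathway came from lists. Of 21 measured cuticle collagens named for a mutant shape, 7 fell and 0 rose in both colorants, where 2.75% of all tested probe sets fell in Ponceau Red and 3.86% in tartrazine. They were sqt-1, sqt-2, sqt-3, rol-6, dpy-4, dpy-5 and dpy-13. Over the 21 the median difference from water came to -1.93 log2 for Ponceau Red and -3.56 for tartrazine. sqt-2 fell by 4.67 log2 in Ponceau Red and 4.97 in tartrazine. dpy-13, which sets body length, read 6.04 and 6.42 in Ponceau Red, 4.76 and 4.76 in tartrazine, and 10.20 and 10.03 in water. dpy-7, an early gene of the pre-moult burst, read 3.81 and 5.23 in Ponceau Red, 3.55 and 3.56 in tartrazine, and 6.18 and 6.18 in water, and did not pass (limma adjusted p = 0.21 and 0.059). Of 22 measured genes for processing and cross-linking of collagen, 0 passed in limma in either colorant, and 2 in Ponceau Red and 14 in tartrazine had an unadjusted p under 0.05. Of the 22, 10 split the Ponceau Red arrays with array 3 the higher, as did 11% of all tested probe sets. dpy-18, a prolyl 4-hydroxylase subunit that stabilises the triple helix, was one, with 6.73 and 9.45 in Ponceau Red, 6.18 and 6.13 in tartrazine, and 8.81 and 8.94 in water. Of 23 regulators, bed-3 and lin-42 fell in tartrazine, by 3.09 and 3.65 log2 (limma adjusted p = 0.028 and 0.041), beside the 3.86% of all tested probe sets that fell. In Ponceau Red 0 regulators passed and 3 had an unadjusted p under 0.05. lin-42 is the worm homologue of Period and times the moults, and bed-3 encodes a zinc finger protein needed for moulting. The 4 measured collagens outside the cuticle, the basement membrane collagens emb-9, let-2 and cle-1 and the touch neuron matrix collagen mec-5, passed in neither colorant, although 2 in each had an unadjusted limma p under 0.05, and they were in none of the 3 classes.

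The authors' deposited tables of ratios bear on the water level. In the authors' deposited table for tartrazine 20 of the 149 members are listed, all with a ratio under 1, where 1746 of 29317 probe sets are listed. How many of the 1746 have a ratio under 1 was not counted. The sums of squares in both tables were read as coming from groups of 3 and 2 arrays. No check of that reading is given here. If the controls are taken as the group of 3, each ratio implies the signal of a further control beyond the 2 water arrays analysed. The values implied by both of the authors' deposited tables differed by a median of 0.292 log2 and correlated at 0.972 over 1746 probe sets. Both values subtract the same 2 water arrays, so their agreement does not show that 3 controls were used. From the authors' deposited table for Ponceau Red this further control would read 3.31 for col-41 and 4.01 for col-65, near the colorant arrays, and 8.06 for col-73, nearer to water. It would read 1.41 for col-123 and 8.92 for col-119, both like Ponceau Red array 2 and the tartrazine arrays. From the authors' deposited table it lay nearer to the colorant mean than to the water mean in 31 of the 44 members lower in all colorant arrays. From the authors' deposited table it lay nearer to Ponceau Red array 2 than to array 3 in 29 of the 30 members with array 3 the higher and in 19 of the 22 with array 2 the higher. The same counts over all probe sets were not made, so these are no result about the members. The first class was also cut on the 2 water arrays that each implied value subtracts. The sources used here do not give its group, stage or handling, and its part in the falls was not tested.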

How the data were processed

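Transcripts of whole animals were measured on 6 arrays, 2 per group, from 3.5 ng of total RNA each. The authors deposited log2 signals per probe set, computed with RMA per the column names and the submitters' processing notes, and a second table of log2 signals with 1 column per labelled trial. The sources used here name no RMA version, annotation release or genome build. The authors also deposited, per the file headers, a ratio (fold change) of colorant over control, and analysis of variance F scores and sums of squares, per colorant. Genes were named by RefSeq (WBcel235): 126 members matched by accession and 23 by symbol. Columns of the first table name a group and an array number, not a labelled trial.

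Here limma 3.58.1 in R 4.3.3 was fitted to the first table over 6 arrays (lmFit, contrasts.fit and eBayes, 3 residual and 1.79 prior degrees of freedom), two-sided, without a block or filter, on the 27568 named probe sets, with 1749 unnamed ones left out. The script was tested on simulated data. Precision is limited by the small number of arrays, with a median 95% interval of 0.65 log2 to either side. Nothing says which cultures the trials shared, so the p-values reflect the spread among these 6 arrays alone. In the second table the difference between the labelled trials was weakly correlated between groups. The correlation across probe sets was -0.04 for Ponceau Red and tartrazine, 0.04 for Ponceau Red and water, and 0.16 for tartrazine and water. Such values cannot tell whether the trials shared cultures or handling.

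The members, lists and alternatives were chosen with earlier results of these data known. Named genes were up to 12 members per colorant with the largest falls that passed, the 8 widest splits in each direction, the 6 brightest in water and in tartrazine, and members with a textbook role. col-150, col-103, col-113, col-183, col-184, col-20, col-80 and col-94, given as border cases, neighbours or sign changes, were named after their values were seen.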

Additional observations from a re-analysis of the deposited data

How the results depend on the processing

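Leaving out each array in turn, the count of members that passed ran from 0 to 103 in Ponceau Red, from 0 to 110 in tartrazine, from 0 to 112 with both colorants averaged and from 0 to 78 between the colorants, so these counts rest on single arrays. Without Ponceau Red array 2, 20 members fell and 58 rose between Ponceau Red and tartrazine. The median log2 difference ran from -1.29 to -0.68 in Ponceau Red, from -1.89 to -1.79 in tartrazine, from -1.64 to -1.45 for both averaged and from 0.18 to 0.54 between the colorants. On the 4 arrays of each comparison, 6 members passed in Ponceau Red and 110 in tartrazine. With the labelled trial as a replicate block, on the second table whose columns carry it, 8 members fell in Ponceau Red and 46 in tartrazine, with medians of -2.12 in tartrazine and 0.74 between the colorants; without the block that table gave 23 and 63 falls with the same medians. With each array centred on its median, the medians were -0.99 in Ponceau Red and -1.33 for both averaged. With only probe sets above the overall median signal, they were -1.74 in Ponceau Red, -2.44 in tartrazine, -2.07 for both averaged and 0.69 between the colorants. The cause of these differences was not tested. Of the 44 members lower in all colorant arrays, 41 were so in the second table. That number was 91, 72 and 22 with a margin of 0, 0.5 and 2 log2 in place of 1. The number that split the Ponceau Red arrays was 62 with a gap of 0.5 log2 and 42 with 2 log2. No call over 6 arrays, count or median changed direction. In Ponceau Red the differences of col-140, col-80 and col-184 were negative without array 2 and positive without array 3. They did not pass over 6 arrays. Other members changed sign too, such as col-124, at -0.49 log2 without array 2 and 3.24 without array 3. In the same order col-155 was at -2.46 and 0.59, and col-103 went the other way, at 0.04 and -0.99. Of the 24 calls of named genes, 24 were lost without either water array, 18 without either tartrazine array, 6 on the 4 arrays of each comparison, 2 in the second table and 5 in that table with the block, these 2 included. Taking the dimmest probe set per symbol and leaving out members marked for cross-hybridisation gave no other value, since no symbol had a second probe set and no member was marked. Protein and promoter sequences were not analysed here.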
